A study of Mus musculus with 6 samples.

Results

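The acute phase proteins described here are 10 secreted proteins of the mouse: the serum amyloid A proteins (Saa1, Saa2, Saa3 and Saa4), the orosomucoids (Orm1, Orm2 and Orm3), haptoglobin (Hp), lipocalin 2 (Lcn2) and serum amyloid P (Apcs). They were taken by gene symbol from a table of 55401 genes. All 10 were among the 10167 genes expressed highly enough to be tested, which are those with a mean of at least 1 FPKM (counts divided by the exonic gene size and by the library total) over the 6 livers. RNA-Seq was performed on livers of 3 Asgr1-/- mice and 3 WT mice, 1 library per mouse. All were males with the strain background C57/BL6, aged 13 weeks, and had no food overnight before the liver was taken. The deletion of Asgr1 was made with CRISPR/Cas9 in zygotes and is present in every tissue, and the mice of both genotypes were littermates bred from heterozygous parents. The number of founder lines behind the 3 knockout animals is not given in the sources used here.

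An acute phase response is the change in plasma proteins that follows infection or injury. Interleukin 6, interleukin 1 and tumor necrosis factor reach the hepatocyte, where STAT3, C/EBP factors and NF-kB raise the transcription of genes such as Saa1 and Saa2, while albumin and transthyretin mRNA decline. Asgr1 encodes the major subunit of the asialoglycoprotein receptor of the hepatocyte, which takes up glycoproteins that have lost their terminal sialic acid. Desialylated orosomucoid is a classical ligand of this receptor. The libraries measured mRNA, not the proteins in plasma.

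The genes of the serum amyloid A family lie next to each other on chromosome 7 of the genome build GRCm38. Saa3 spans positions 46711998 to 46715700, Saa4 spans 46727998 to 46732603, Saa1 spans 46740497 to 46742980, and Saa2, on the opposite strand, spans 46751790 to 46754313. The coding transcripts of Saa1 and Saa2 are 93.9% identical, whereas Saa1 and Saa3 share 61.6% of aligned bases. The 3 orosomucoid genes are adjacent on chromosome 4, from the start of Orm1 at 63344560 to the end of Orm2 at 63365878, with Orm3 between them. Hp lies on chromosome 8, Lcn2 on chromosome 2 and Apcs on chromosome 1.

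Because Saa1 and Saa2 had nearly the same pattern over the livers and Saa3 did not, the promoters of these 3 genes are shown, each from 250 to 51 bases upstream of the transcription start in RefSeq (GRCm38.p6). Saa1 is at chr7:46743031-46743230 on the minus strand, Saa2 at chr7:46751583-46751782 on the plus strand and Saa3 at chr7:46715727-46715926 on the minus strand. Capitals mark matches to the C/EBP motif TTNNGNAAT on either strand.
Saa1 promoter: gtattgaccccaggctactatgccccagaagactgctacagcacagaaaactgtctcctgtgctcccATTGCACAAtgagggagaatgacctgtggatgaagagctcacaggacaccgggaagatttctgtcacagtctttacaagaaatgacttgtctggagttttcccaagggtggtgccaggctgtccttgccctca
Saa2 promoter: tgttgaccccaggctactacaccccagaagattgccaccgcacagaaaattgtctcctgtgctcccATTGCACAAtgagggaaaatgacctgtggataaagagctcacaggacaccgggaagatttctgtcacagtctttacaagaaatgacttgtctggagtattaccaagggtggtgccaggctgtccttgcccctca
Saa3 promoter: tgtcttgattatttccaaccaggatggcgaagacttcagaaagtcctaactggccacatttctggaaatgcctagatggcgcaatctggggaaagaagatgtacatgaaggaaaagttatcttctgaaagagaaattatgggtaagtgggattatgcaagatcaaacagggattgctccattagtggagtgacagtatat
The Saa1 and Saa2 promoters were 93.5% identical, against 49.1% for Saa1 and Saa3 and 45.8% for Saa2 and Saa3. The marked C/EBP match began 183 bases upstream of the start in Saa1 and 184 bases upstream in Saa2. The Saa3 window held no match to the letters TTNNGNAAT, and looser forms of the motif were not searched. Of the 10 genes, 8 had an entry in the promoter table, and among these Orm2 was the only other one with a C/EBP match, 109 bases upstream. The motif occurred in 8.68% of 32851 mouse promoter windows of the same length. The STAT motif TTCNNNGAA, found in 5.76% of these windows, matched Apcs alone, 244 bases upstream, and the NF-kB motif, found in 3.13%, matched none of the 8. These matches describe letters in a window and not bound sites.

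The deleted gene matched the labels in all libraries, with 36 to 62 Asgr1 counts in Asgr1-/- livers and 11716 to 15894 counts in WT livers. The libraries held between 19842637 and 22080809 counts. The 8 hepatocyte markers summed to between 78021.9 and 83871.1 CPM in Asgr1-/- livers, against between 86263.8 and 97386.7 CPM in WT livers, where CPM are counts scaled by library size and TMM factors, a correction for library composition. Most of this sum is albumin (Alb). Without Alb the other 7 markers summed to between 25709.3 and 28381.9 CPM in Asgr1-/- livers and to between 25198.5 and 30647.0 CPM in WT livers, which overlap, and the median log2 fold change of the 8 markers was -0.03. The 12 Kupffer cell and macrophage markers summed to between 215 and 340 CPM in Asgr1-/- livers and to 96.1, 265 and 879 CPM in WT livers 1, 2 and 3. Of 10 neutrophil markers, 0 were expressed highly enough to be tested, their sum was at most 5.45 CPM in any liver, and Ly6g had 0 counts in all 6. The 5 endothelial markers summed to between 88.1 and 132 CPM in Asgr1-/- livers and to 77.2, 112 and 186 CPM in WT livers 1, 2 and 3. The 5 bile duct markers summed to between 51.8 and 64.7 CPM in Asgr1-/- livers and to 39.3, 39.6 and 52.3 CPM in WT livers 1, 2 and 3. Of the 3 bile duct markers tested, all had log2 fold changes above 0 (median 1.20). By edgeR, DESeq2 or limma 0 passed, beside 0.295%, 3.89% and 0.108% of all tested genes. At an unadjusted p under 0.05 by edgeR 2 of the 3 were found, beside 15.5% of all tested genes. In 2 of the 3, all Asgr1-/- livers were above all WT livers, as in 1112 of the 10167 tested genes. In bulk liver RNA, fewer cells of a type and less RNA per cell cannot be told apart.

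Saa1 and Saa2 mRNAs were lower in every Asgr1-/- liver than in any WT liver, with means at 0.318 and 0.31 of the WT means. The spread among WT livers was wide, and neither gene passed the test across all genes. The other 8 mRNAs had fitted differences between -0.57 and 0.60 on the log2 scale. By edgeR's quasi-likelihood test with Benjamini-Hochberg adjustment, 0 of the 10 genes passed an adjusted p of 0.05, beside 0.295% of all tested genes. At an unadjusted p under 0.05, 2 of the 10 were found, both lower in Asgr1-/- livers, beside 15.5% of all tested genes. DESeq2 and limma also called 0 of the 10, beside 3.89% of all tested genes by DESeq2 and 0.108% by limma. In 3 of the 10, Saa1, Saa2 and Hp, the values of the genotypes did not overlap, beside 21.9% of all tested genes. All 3 were lower in Asgr1-/- livers, as were 10.9% of all tested genes. The median log2 fold change of Asgr1-/- over WT was -0.22 for the 10 genes and -0.02 for all genes tested, and it was below 0 for 6 of the 10 genes and for 53.3% of all genes tested.

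**Figure D1:**
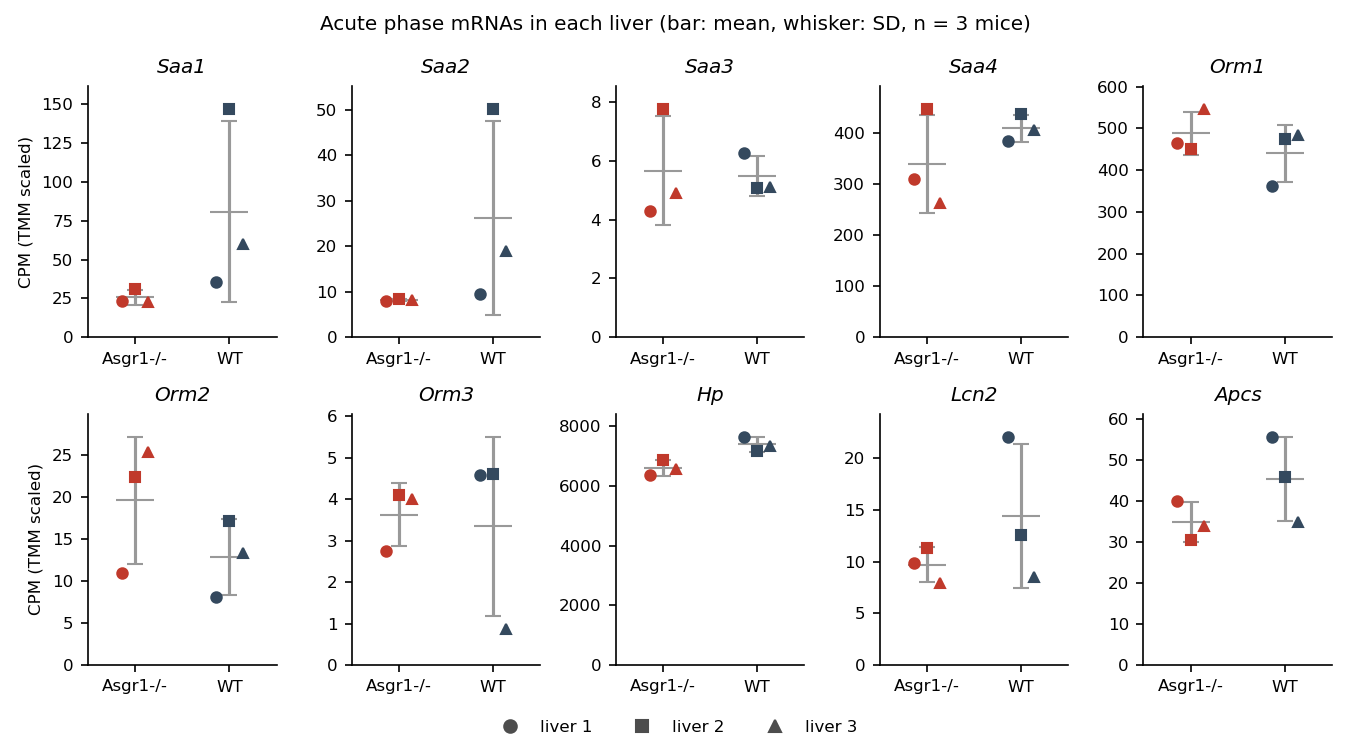
Level of each acute phase mRNA in CPM (y axis, linear, from 0) in 3 Asgr1-/- livers (red, left) and 3 WT livers (dark, right). Points are livers, horizontal bars are means and whiskers are SD. Saa1 and Saa2 were lowest in all 3 Asgr1-/- livers and highest in WT liver 2, at 147 and 50.2 CPM.

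Saa1 encodes a small apolipoprotein that circulates on HDL and is the precursor of amyloid A fibrils. It was measured at 23.4, 31.1 and 22.6 CPM in Asgr1-/- livers 1, 2 and 3, against 35.6, 147 and 60.1 CPM in WT livers 1, 2 and 3. The Asgr1-/- livers lay within a factor of 1.38 of each other, whereas the WT livers differed by a factor of 4.14. The mean was 25.7 ± 4.72 CPM in Asgr1-/- and 80.9 ± 58.6 CPM in WT livers (SD, n = 3 each). The log2 fold change was -1.66 (standard error 0.43, 95% interval -2.63 to -0.68, edgeR adjusted p = 0.126).

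Saa2 encodes the second HDL-bound acute phase form of serum amyloid A. It had 7.98, 8.32 and 8.07 CPM in Asgr1-/- livers 1, 2 and 3, against 9.51, 50.2 and 18.9 CPM in WT livers 1, 2 and 3. WT liver 1 was close to the Asgr1-/- livers, WT liver 2 stood far above them, and the groups did not overlap. Asgr1-/- over WT gave a log2 fold change of -1.69 (standard error 0.49, 95% interval -2.79 to -0.59, edgeR adjusted p = 0.163). The SD of log2(CPM + 0.5) was 0.03 among Asgr1-/- livers and 1.18 among WT livers. Ranked by this SD among all tested genes, Saa2 stood at percentile 3.5 in Asgr1-/- livers and at percentile 99.3 in WT livers. For Saa1 these percentiles were 82.8 in Asgr1-/- and 98.9 in WT livers.

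Reads from Saa1 and Saa2 may be hard to tell apart, since 13.2% of the 50-base stretches of the Saa1 transcript occur unchanged in Saa2, and how such reads were counted is not given in the sources used here. Their summed level does not depend on how such reads were divided between them, though it would lack any reads that were left uncounted. It was 31.4, 39.5 and 30.6 CPM in Asgr1-/- livers 1, 2 and 3, against 45.1, 197 and 79 CPM in WT livers 1, 2 and 3. The fold of the means was 0.316, or -1.66 on the log2 scale. Without WT liver 2, the liver with the highest level of both genes, it was -0.87. The ratio of Saa1 to Saa2 counts stayed between 2.8 and 3.74 over all 6 livers, while the sum varied much more. The Kupffer cell and macrophage markers summed to 265 CPM in WT liver 2, the highest for Saa1 and Saa2, which is within the range of the Asgr1-/- livers. WT liver 1 was the lowest WT liver for both, with a marker sum of 96.1 CPM. All 12 markers had log2 fold changes below 0 (median -0.64), against 53.3% of all tested genes. Beside 15.5% of all tested genes, 0 of these markers had an unadjusted p under 0.05 by edgeR. Their part in the Saa1 and Saa2 levels was not tested.

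The outcome of the test for Saa1 and Saa2 depended on the setting. Without WT liver 1, the lowest of the WT livers, the log2 fold change of Saa1 was -2.01 (edgeR adjusted p = 0.0421) and that of Saa2 was -2.09 (edgeR adjusted p = 0.0445). Without WT liver 2 they were -0.90 and -0.81, and over the 6 fits with a liver left out the adjusted p ranged from 0.0421 to 0.409 for Saa1 and from 0.0445 to 0.432 for Saa2. When the expression filter was dropped and 24757 genes entered the fit, both genes passed (edgeR adjusted p = 6.8e-14 for Saa1 and 3.8e-11 for Saa2) at nearly the same fold changes, -1.65 and -1.68. In that fit edgeR drew each gene's variance far more strongly to the common value, with a median of 165 prior degrees of freedom against 5.3 with the filter, and the standard error of Saa1 was 0.18 in place of 0.43. Over the 8 other settings the adjusted p of Saa1 ranged up to 0.224 and that of Saa2 up to 0.289.

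**Figure D2:**
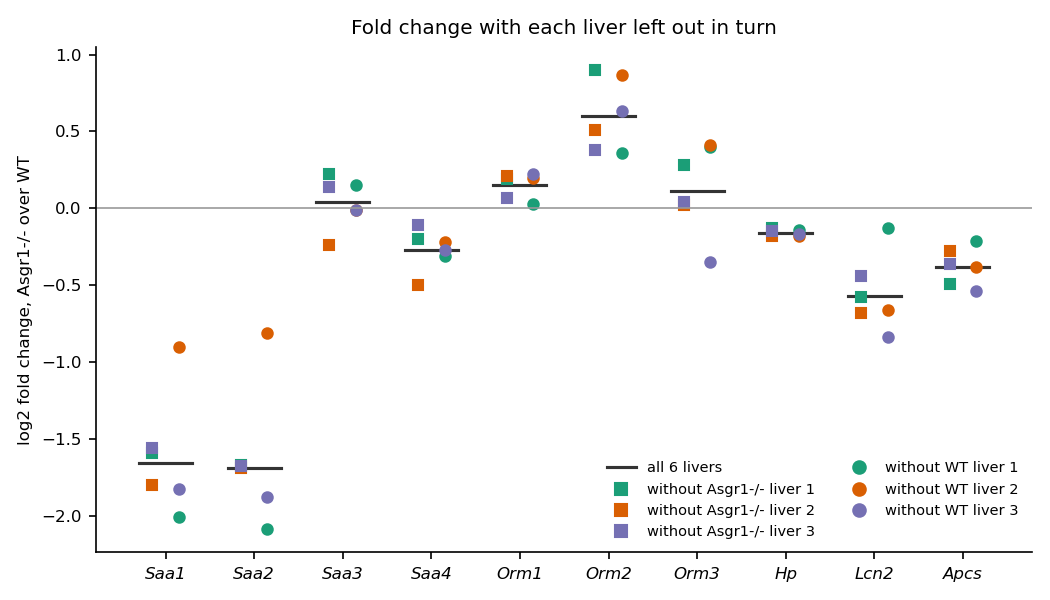
Log2 fold change of Asgr1-/- over WT livers (y axis) for each acute phase mRNA, with all 6 livers (black line) and with 1 liver left out (squares for Asgr1-/- livers, circles for WT livers, colored by liver number). Saa1 and Saa2 stayed below 0 throughout and were nearest to 0 without WT liver 2, at -0.90 and -0.81.

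Saa3, which in mice is made by macrophages and fat more than by the resting hepatocyte, was low in both genotypes. It had 4.3, 7.77 and 4.9 CPM in Asgr1-/- livers 1, 2 and 3, against 6.27, 5.06 and 5.1 CPM in WT livers 1, 2 and 3. The values overlapped, and the log2 fold change was 0.04 (standard error 0.26, 95% interval -0.53 to 0.62, edgeR adjusted p = 0.953). Its sign depended on single livers, since it was -0.24 without Asgr1-/- liver 2 and -0.01 without WT liver 2 or without WT liver 3. Saa3 was not highest in WT liver 3, which had the highest sum of Kupffer cell and macrophage markers. The part of these cells in the Saa3 level was not tested.

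Saa4 encodes the serum amyloid A that is made constitutively. It had 309, 447 and 262 CPM in Asgr1-/- livers 1, 2 and 3, against 384, 436 and 406 CPM in WT livers 1, 2 and 3. Asgr1-/- liver 2 was the highest of all 6 and the other two Asgr1-/- livers were the lowest. Fitted over both groups, the log2 fold change was -0.27 (standard error 0.18, 95% interval -0.68 to 0.14, edgeR adjusted p = 0.515). In contrast to Saa1 and Saa2, the WT livers agreed within a factor of 1.13 and the Asgr1-/- livers within a factor of 1.7.

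Orm1 encodes the main orosomucoid, or alpha-1-acid glycoprotein, a plasma carrier of lipophilic compounds. It was found at 466, 451 and 547 CPM in Asgr1-/- livers 1, 2 and 3, against 362, 474 and 485 CPM in WT livers 1, 2 and 3. Orm1 had a log2 fold change of 0.15 (standard error 0.14, 95% interval -0.17 to 0.47, edgeR adjusted p = 0.656), and the groups overlapped.

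Orm2, a close copy of Orm1, had 11, 22.4 and 25.4 CPM in Asgr1-/- livers 1, 2 and 3, against 8.07, 17.2 and 13.3 CPM in WT livers 1, 2 and 3. In both genotypes liver 1 had the lowest level, and Asgr1-/- liver 1 lay below WT livers 2 and 3. Its log2 fold change of 0.60 (standard error 0.33, 95% interval -0.14 to 1.35, edgeR adjusted p = 0.415) was the highest of the 10 genes. Without the expression filter it was 0.62 with an adjusted p of 0.0412 from edgeR, while over the other settings with all livers the adjusted p reached 0.445.

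Orm3 had few counts. It was measured at 2.75, 4.11 and 4.01 CPM in Asgr1-/- livers 1, 2 and 3, against 4.58, 4.62 and 0.858 CPM in WT livers 1, 2 and 3. WT liver 3 stood apart with 17 counts, against 89 counts in WT liver 1 and 94 counts in WT liver 2. A log2 fold change of 0.11 (standard error 0.50, 95% interval -1.02 to 1.24, edgeR adjusted p = 0.941) was fitted, and it was -0.35 without WT liver 3.

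The orosomucoid transcripts are alike, with 91.0% identity between Orm1 and Orm2, and 20.4% of the 50-base stretches of Orm1 are found unchanged in Orm2. The division of counts among the 3 genes is therefore uncertain. Their sum was 480, 477 and 576 CPM in Asgr1-/- livers 1, 2 and 3, against 374, 496 and 500 CPM in WT livers 1, 2 and 3. The ratio of Orm1 to Orm2 counts ran from 20.2 in Asgr1-/- liver 2 to 44.8 in WT liver 1, so that, unlike the pair Saa1 and Saa2, these genes did not keep one proportion from liver to liver.

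Hp encodes haptoglobin, which binds free hemoglobin. It was the most abundant of the 10 mRNAs and ranked 14 among all tested genes by FPKM. Its level was 6368.5, 6874.5 and 6566.6 CPM in Asgr1-/- livers 1, 2 and 3, against 7654.2, 7184.8 and 7328.0 CPM in WT livers 1, 2 and 3. All Asgr1-/- livers were below all WT livers, but the log2 fold change was only -0.16 (standard error 0.11, 95% interval -0.41 to 0.08, edgeR adjusted p = 0.515). The Asgr1-/- livers lay within a factor of 1.08 of each other and the WT livers within a factor of 1.07. The absence of overlap depended on the TMM factors: in the deposited FPKM, Asgr1-/- liver 2 had 4303 and WT liver 2 had 4296. Alb mRNA did not overlap between the genotypes either, in the same direction, whereas the sum of the other 7 hepatocyte markers overlapped.

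Lcn2 encodes lipocalin 2, which binds bacterial siderophores and is made by neutrophils, fat and the stressed liver. It had 9.85, 11.3 and 7.97 CPM in Asgr1-/- livers 1, 2 and 3, against 22.1, 12.6 and 8.53 CPM in WT livers 1, 2 and 3. WT liver 1 was the highest by a wide margin and WT liver 3 lay among the Asgr1-/- livers. The log2 fold change was -0.57 (standard error 0.31, 95% interval -1.26 to 0.12, edgeR adjusted p = 0.403), and it was -0.13 without WT liver 1. The 5 fat markers summed to between 11.2 and 16.1 CPM in Asgr1-/- livers and to 20.5, 7.82 and 8.43 CPM in WT livers 1, 2 and 3, with Lep at 0 counts in all livers. Their part in the Lcn2 value of WT liver 1 was not tested.

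Apcs encodes serum amyloid P, a pentraxin and a major acute phase protein of the mouse. It had 40.1, 30.4 and 33.9 CPM in Asgr1-/- livers 1, 2 and 3, against 55.5, 45.8 and 34.9 CPM in WT livers 1, 2 and 3. The groups overlapped only through Asgr1-/- liver 1, which lay above WT liver 3. For Apcs the log2 fold change was -0.38 (standard error 0.18, 95% interval -0.78 to 0.02, edgeR adjusted p = 0.339).

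**Figure D3:**
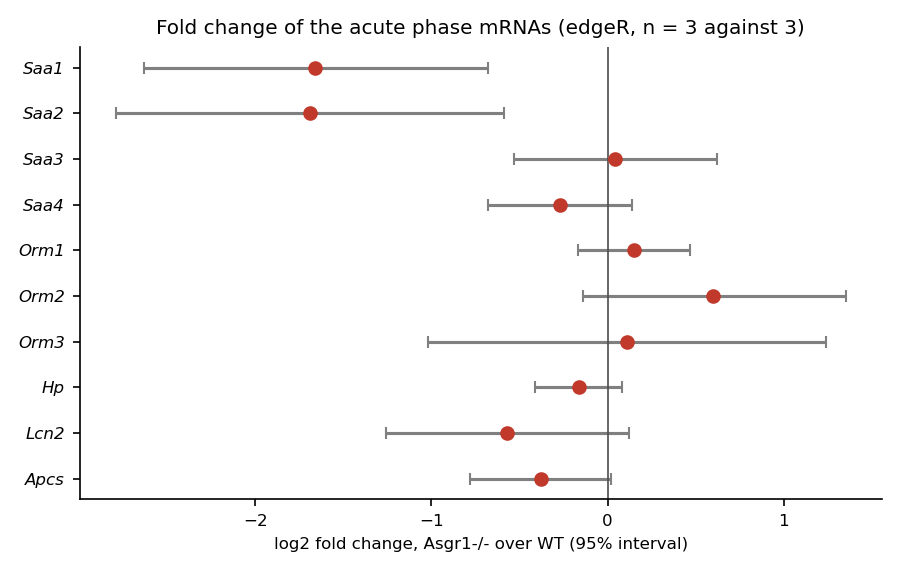
Log2 fold change of Asgr1-/- over WT livers (x axis) with its 95% interval from edgeR for the 10 acute phase mRNAs (rows), 3 livers per genotype. The intervals of Saa1 (-2.63 to -0.68) and Saa2 (-2.79 to -0.59) lie below 0, and the other 8 include 0.

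Levels of different genes were compared per kilobase. The table divides counts by an exonic size that, for Saa1, Saa2, Saa3 and Lcn2, is much longer than the coding transcript, 2478 against 609 bases for Saa1. With FPKM recomputed on the coding transcript, Hp had a mean of 4945.8 in Asgr1-/- and 5328.6 in WT livers, and Orm1 had 634 in Asgr1-/- and 551 in WT livers. Both stood clear of every gene below them in each group. Saa4 followed with 163 in Asgr1-/- and 189 in WT livers, and Saa1 with 42.5 in Asgr1-/- and 129 in WT livers. Saa1 lay below Saa4 in the Asgr1-/- livers (36.9 to 51.4 for Saa1, 125 to 214 for Saa4) but overlapped it in the WT livers (56.4 to 232 for Saa1, 177 to 200 for Saa4). Apcs, at 36.1 in Asgr1-/- and 45.3 in WT livers, overlapped Saa1 in the Asgr1-/- livers and Saa2 in the WT livers. Saa2 had 13.5 in Asgr1-/- and 41.8 in WT livers. Of the remaining 4 genes, Orm2, Lcn2 and Saa3 overlapped their neighbors in one group or both, and Orm3 was the lowest, with 4.72 in Asgr1-/- and 4.18 in WT livers. By the lengths of the table, the ratio of Saa1 to Saa4 in WT livers was 0.167, and by the coding transcript it was 0.683, so the place of Saa1 among the 10 depends on the length used. This second length was chosen after the data were seen.

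The expression pattern of Saa1 and Saa2 over the livers was compared with that of every tested gene, as the root mean square difference of centered log2 CPM over the 6 livers. The median of all tested genes was 0.95. A gene with the same level in all 6 livers would have 0.94, the spread of the Saa1 and Saa2 sum itself. Saa4, the nearest of the other 8 acute phase genes, had 0.79, and Orm3, the farthest, had 1.19. The 5 closest genes outside the lists were Hsd17b6 (0.36), Ppl (0.44), Gbp11 (0.50), Igfbp5 (0.51) and 1810064F22Rik (0.51). Hsd17b6, a hydroxysteroid dehydrogenase, had 33.8, 45.8 and 28.4 CPM in Asgr1-/- livers 1, 2 and 3, against 47.1, 109 and 83.7 CPM in WT livers 1, 2 and 3. Gbp11, of the interferon-inducible guanylate-binding family, had 2.13, 5.16 and 5 CPM in Asgr1-/- livers 1, 2 and 3, against 10.7, 21.4 and 9.64 CPM in WT livers 1, 2 and 3. All 5 were highest in WT liver 2, which follows from how they were chosen. None passed the test, with adjusted p from edgeR between 0.0869 (Gbp11) and 0.280 (Igfbp5).

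Further positive acute phase genes of the liver were described with a list of 28, of which 26 were tested. By edgeR 0 of the 26 passed, 8 had an unadjusted p under 0.05 (7 lower and 1 higher in Asgr1-/- livers), DESeq2 called 3 and limma 0. Over all tested genes these shares were 15.5% at an unadjusted p under 0.05, 3.89% by DESeq2 and 0.108% by limma. The log2 fold change was below 0 for 24 of the 26, against 53.3% of all tested genes, with a median of -0.22. WT liver 2, where Saa1 and Saa2 peaked, was also the highest liver for 15 of the 26 genes (57.7%), against 20.4% of all tested genes. Of the 10 acute phase genes described first, 3 (Saa1, Saa2 and Orm3) were highest in WT liver 2 and 3 (Hp, Lcn2 and Apcs) in WT liver 1. Over all tested genes 20.4% were highest in WT liver 2 and 23.5% in WT liver 1.

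Fgl1, a hepatocyte-derived fibrinogen-like protein, had 231, 199 and 205 CPM in Asgr1-/- livers 1, 2 and 3, against 281, 441 and 374 CPM in WT livers 1, 2 and 3 (log2 fold change -0.79, edgeR adjusted p = 0.0751, DESeq2 adjusted p = 4.2e-04). Pigr, the polymeric immunoglobulin receptor, had 737, 773 and 660 CPM in Asgr1-/- livers 1, 2 and 3, against 881, 1539.8 and 1153.1 CPM in WT livers 1, 2 and 3 (-0.72, edgeR adjusted p = 0.126, DESeq2 adjusted p = 0.00693). Both shared with Saa1 and Saa2 the absence of overlap and the order of the WT livers. Lrg1, a leucine-rich glycoprotein of plasma, did not share this direction, with 1198.3, 1069.3 and 1211.3 CPM in Asgr1-/- livers 1, 2 and 3, against 794, 753 and 1008.9 CPM in WT livers 1, 2 and 3 (0.44, edgeR adjusted p = 0.179, DESeq2 adjusted p = 0.0436). Cp, the copper carrier ceruloplasmin, had a log2 fold change of -0.32 (edgeR adjusted p = 0.231).

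Plasma proteins whose mRNA declines in an acute phase response were described with 12 negative acute phase genes. All 12 were tested, of which 0 passed by edgeR, 2 had an unadjusted p under 0.05, both lower in Asgr1-/- livers, DESeq2 called 1 and limma 0. The 2 of 12 are 16.7%, near the 15.5% of all tested genes at that p. Of all tested genes 0.295% passed by edgeR, 3.89% by DESeq2 and 0.108% by limma. Their median log2 fold change was -0.17, and 8 of 12 were below 0, against 53.3% of all tested genes. Serpina6, the corticosteroid-binding globulin, had 214, 316 and 256 CPM in Asgr1-/- livers 1, 2 and 3, against 450, 415 and 376 CPM in WT livers 1, 2 and 3 (-0.66, edgeR adjusted p = 0.0963, DESeq2 adjusted p = 0.00268). Pon1, the HDL-bound paraoxonase, had a log2 fold change of -0.35 (edgeR adjusted p = 0.248), Gc, the vitamin D carrier, -0.23 (edgeR adjusted p = 0.359) and Alb, albumin, -0.27 (edgeR adjusted p = 0.364). In these 4 and Ttr, transthyretin, 5 of the 12, all Asgr1-/- livers were below all WT livers, as in 10.9% of all tested genes. The negative genes were highest in WT liver 2 in 2 of 12 cases, against 20.4% of all tested genes. They were highest in WT liver 1 in 6 of 12, against 23.5% of all tested genes.

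Of 24 genes of the signaling route to these promoters, 22 were tested. By edgeR 0 passed, 6 had an unadjusted p under 0.05 (3 higher and 3 lower in Asgr1-/- livers), DESeq2 called 4 and limma 0, where the shares of all tested genes were 15.5% at the unadjusted p, 3.89% by DESeq2 and 0.108% by limma. The median log2 fold change was -0.09. Socs3, a feedback inhibitor induced by STAT3, had 5.28, 5.92 and 6.44 CPM in Asgr1-/- livers 1, 2 and 3, against 11.5, 18.6 and 8.94 CPM in WT livers 1, 2 and 3 (-1.15, standard error 0.26, edgeR adjusted p = 0.0925, DESeq2 adjusted p = 0.00312). Like Saa1 and Saa2, it was highest in WT liver 2, but its lowest WT liver was liver 3. Nfkbiz, an inducible cofactor of NF-kB, had 9.85, 9.62 and 8.86 CPM in Asgr1-/- livers 1, 2 and 3, against 17.3, 15.3 and 13.9 CPM in WT livers 1, 2 and 3 (-0.71, standard error 0.14, edgeR adjusted p = 0.0675, DESeq2 adjusted p = 0.00619).

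Cebpd and Cebpb, the inducible C/EBP factors whose motif is marked in the promoters above, had higher values in every Asgr1-/- liver than in any WT liver. Cebpd had 20.7, 14.9 and 19.6 CPM in Asgr1-/- livers 1, 2 and 3, against 10.5, 7.77 and 13.6 CPM in WT livers 1, 2 and 3 (0.80, standard error 0.21, edgeR adjusted p = 0.134, DESeq2 adjusted p = 0.024). Cebpb had 338, 273 and 332 CPM in Asgr1-/- livers 1, 2 and 3, against 126, 124 and 261 CPM in WT livers 1, 2 and 3 (0.88, standard error 0.27, edgeR adjusted p = 0.173, DESeq2 adjusted p = 0.0153). In WT liver 2, where Saa1 and Saa2 were highest, both factors had their lowest level, though for Cebpb WT liver 1 was nearly equal. The part of these factors in the Saa1 and Saa2 levels was not tested, and mRNA does not measure their activity. The transcription factor Stat3 (-0.31, edgeR adjusted p = 0.469) and the IL-6 receptor subunit Il6ra (-0.37, edgeR adjusted p = 0.333), named for their role in this route and not by rank, did not pass.

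**Figure D4:**
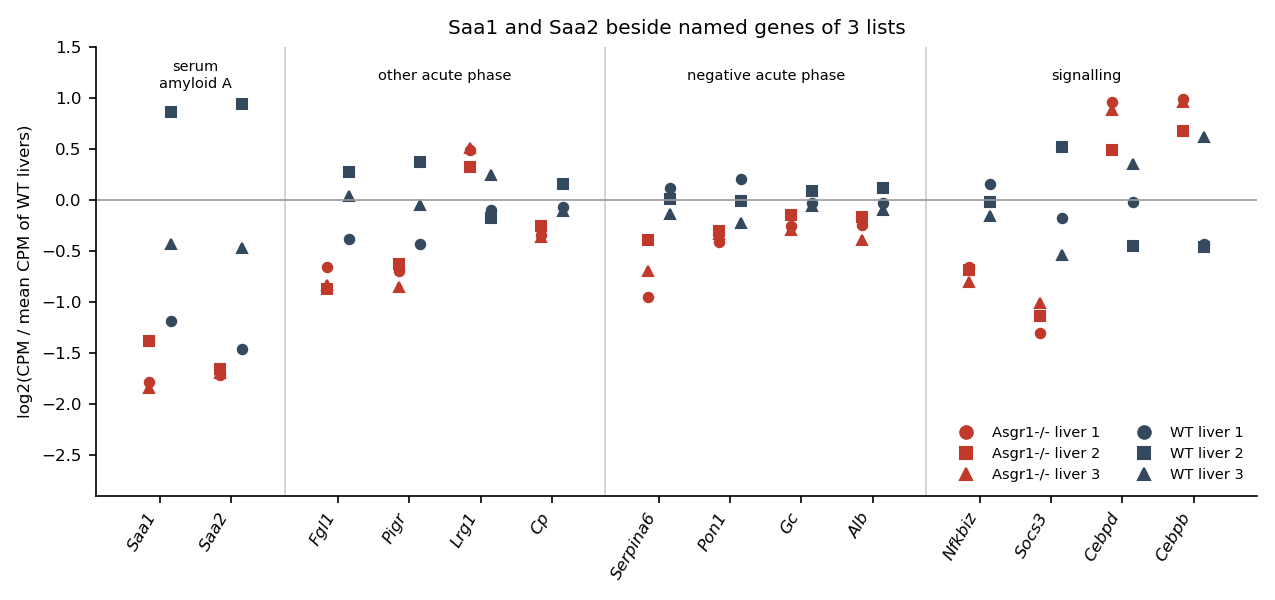
Log2 ratio of CPM to the mean CPM of the WT livers (y axis) for Saa1, Saa2 and the 4 genes with the smallest p in the lists of other acute phase, negative acute phase and signaling genes; red symbols are Asgr1-/- livers, dark symbols WT livers. Socs3 and Nfkbiz lay lower in all Asgr1-/- livers than in any WT liver, and Cebpd and Cebpb lay higher.

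The cytokines that start the response were hardly expressed, and 0 of 8 reached the level for testing. Il6 had 4 counts in all Asgr1-/- livers together and 0 in all WT livers together, Tnf had 18 counts in Asgr1-/- and 15 in WT livers, and Il1b had 15, 16 and 18 counts in Asgr1-/- livers 1, 2 and 3, against 1, 14 and 74 counts in WT livers 1, 2 and 3. The WT total of Il1b thus came mostly from WT liver 3, while WT liver 2 was close to the Asgr1-/- livers and WT liver 1 lay below them. Of 9 genes for uptake and partners of the acute phase proteins 4 were tested, and 0 passed by edgeR (0 also at an unadjusted p under 0.05 and 0 by DESeq2 and limma). Cd163, the macrophage receptor for haptoglobin bound to hemoglobin, had 13.4, 7.27 and 5.64 CPM in Asgr1-/- livers 1, 2 and 3, against 2.31, 8.75 and 25 CPM in WT livers 1, 2 and 3, and within each genotype it had the same order of livers as the Kupffer cell and macrophage markers. Apoa1, the main HDL apolipoprotein, had a log2 fold change of 0.05 (edgeR adjusted p = 0.930).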

How the data were processed

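Liver RNA of 3 Asgr1-/- and 3 WT mice was sequenced as 1 library per mouse. GENEWIZ processed the sequences, and the submitters' processing notes name build GRCm38 and DESeq2 1.6.3. No source used here names the aligner, the counter or the strand setting. The authors deposited raw counts per gene, and FPKM that they made by dividing the counts by exonic gene size and library total. FPKM recomputed from the counts differed from the deposited values by at most 0.0050.

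The 10 genes and the lists of other genes were chosen with earlier results of these data known. Genes were tested when FPKM averaged 1 or more (10167 genes), on their counts and two-sided, with edgeR 4.0.16 (R 4.3.3; quasi-likelihood, TMM, no covariate), adjusted by Benjamini-Hochberg and called at 0.05. Exact permutation of 3 against 3 livers cannot give a p below 0.1 and was not used. DESeq2 1.42.0 and limma 3.58.1 on log2(FPKM + 0.1) and log2(FPKM + 1), other filters and scalings, a replicate block and leaving out each liver were the alternatives. Of each list, up to 4 tested genes with the smallest p were named, and the 5 genes most like Saa1 and Saa2. Replicate numbers did not pair the livers over all tested genes (correlations of deviations -0.168, 0.0241 and -0.0341). No library repeated another (chi-square per degree of freedom 25.7 to 71.8). Tested on simulated data, edgeR found 79.1% of the genes given a 2-fold change and 22.4% at 1.5-fold among 10167 genes. Promoters came from RefSeq (GRCm38.p6) and transcripts from GENCODE M21 (GRCm38). Library totals were 19842637 to 22080809 counts, at which genes with few counts, such as Orm3, are the least precise.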

Additional observations from a re-analysis of the deposited data

How the results depend on the processing

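Of all tested genes, edgeR called 30. The count was 618 without the expression filter, 70 at a mean FPKM of at least 0.1, 396 with DESeq2, 16 with limma on log2(FPKM + 1) and 11 on log2(FPKM + 0.1). It ranged from 3 to 305 with 1 liver left out. Of the 10 acute phase genes 0 were called, 3 without the filter (Saa1, Saa2 and Orm2) and 0 to 2 with 1 liver left out (Saa1 and Saa2, without WT liver 1). With the replicate block 23 genes were called, 0 of them among the 10, and the log2 fold change of Saa1 was -1.43 (edgeR adjusted p = 0.0973). Over all tested genes the replicate numbers did not pair the livers, and pairing in single genes was not tested. The direction of Saa3 turned to -0.24 without Asgr1-/- liver 2 and to -0.01 without WT liver 2 or 3 (range with 1 liver left out, -0.24 to 0.22), and that of Orm3 turned to -0.35 without WT liver 3 (range -0.35 to 0.41). The cause was not tested. The other 8 genes kept their direction in every alternative run. The log2 fold of the summed Saa1 and Saa2 level was -0.87 without WT liver 2. The ratio of Saa1 to Saa4 in WT livers was 0.683 by transcript length. With 3 livers a genotype, a difference of the size seen for Hp or Orm1 cannot be told from 0 here.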

Other observations

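Some further acute phase genes varied mainly between single livers, and they are given here because of that, chosen after their values were seen. Hamp, which encodes hepcidin, the hormone that limits iron export, had 739, 139 and 890 CPM in Asgr1-/- livers 1, 2 and 3, against 1022.1, 957 and 885 CPM in WT livers 1, 2 and 3. Asgr1-/- liver 2 stood far below the other 5 livers, and the log2 fold change was -0.70 (edgeR adjusted p = 0.542). The metallothionein Mt1, a metal-binding protein, had 89.9, 17.2 and 21.7 CPM in Asgr1-/- livers 1, 2 and 3, against 64.4, 41.2 and 21.5 CPM in WT livers 1, 2 and 3. Mt2, its neighbor, had 33.4, 3.66 and 4.11 CPM in Asgr1-/- livers 1, 2 and 3, against 26, 15.8 and 5.86 CPM in WT livers 1, 2 and 3. C3, the central complement component, had 6487.4, 5962.9 and 6783.1 CPM in Asgr1-/- livers 1, 2 and 3, against 5341.0, 10027.0 and 7599.0 CPM in WT livers 1, 2 and 3. Like Saa1 and Saa2, it spread more among WT livers than among Asgr1-/- livers. In a chi-square of the raw counts summed over the tested genes, pairs of WT livers also differed more. It was 41.3 to 71.8 per degree of freedom, against 25.7 to 29.5 for pairs of Asgr1-/- livers. Abundant mRNAs weigh most in this measure, and the spread was not compared gene by gene over all tested genes.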
